A study of Mus musculus with 20 samples.

Results

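Transcripts of 9 apoptosis regulators linked to follicle atresia were followed in mouse ovaries of 2 lines and 2 stages of the estrous cycle. The genes are *Bcl2*, *Bcl2l1* and *Mcl1*, which encode survival proteins, *Bax* and *Bak1*, which encode pore-forming effectors, the BH3-only genes *Bcl2l11* and *Bbc3*, the death receptor gene *Fas*, and *Xiap*, which encodes an inhibitor of caspases. They were chosen by symbol for their function and matched to 9 of the 54838 Ensembl genes with deposited counts, and no caspase gene is among them. FL1 is a Dummerstorf line bred over many generations for large and heavy litters, and ctrl is an unselected line kept by rotational mating, both derived from the same outbred line. No treatment or engineered allele is named for either. Each line is a single breeding population, so selection and chance divergence between the populations cannot be told apart. Whole ovaries, cleaned of surrounding tissue, came from females aged 77 days whose stage was read from vaginal smears. Each line gave 5 animals per stage, estrus or diestrus, and 1 library was made per animal.

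In these ovaries, *Bbc3* differed between the lines in diestrus, where FL1 had 14.0 ± 2.35 CPM (mean ± SD, n = 5) and ctrl 6.96 ± 1.95. CPM stands for read counts adjusted for library size, here with TMM factors. *Bcl2l11* differed between the stages in FL1, with 36.2 ± 3.59 CPM in estrus and 46.1 ± 3.18 in diestrus. Of all genes, 15.9% differed in that comparison, against 4.11% between the lines in diestrus. The call of *Bcl2l11* held in 4 of 10 fits that left out 1 library each, and that of *Bbc3* in all 10. The other 7 genes passed the test in no comparison.

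Most ovarian follicles never ovulate but degenerate by atresia, in which the granulosa cells die by apoptosis. In the intrinsic pathway, stress or the loss of survival signals raises BH3-only proteins such as BIM (*Bcl2l11*) and PUMA (*Bbc3*), which bind BCL2, BCL-XL (*Bcl2l1*) and MCL1 and thereby release BAX and BAK to open the outer mitochondrial membrane. Cytochrome c then activates caspases, which XIAP holds back, while the receptor FAS reaches the caspases from the cell surface. Much of this control acts on proteins, which transcript counts do not show.

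The counts come from 3' mRNA-Seq, in which each transcript yields reads near its poly(A) tail, so that their number does not grow with transcript length. The libraries held 5991223 to 10352718 counts, with medians by group from 6587123 to 7021396. Markers of granulosa cells, luteal cells and oocytes were counted in every group, though the granulosa marker *Amh* had only 2 to 6 counts per group. Of the 4 theca markers *Insl3* was near 0 in every group. It had no count in either FL1 group, 2 counts in ctrl in estrus and 5 in ctrl in diestrus. None of the 9 genes shares its 3' end with a copy elsewhere in the annotation. Other annotated genes overlap *Bcl2*, *Bax*, *Bak1* and *Fas*, and none of them has an exon within 1000 nt of the 3' end of the member. However, *Gm45808*, which overlaps *Bax* on the same strand, shares 164 stretches of 31 nt with the last 300 nt of *Bax* transcripts. It had 0 counts, and how reads that match both genes were counted is not given.

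By mean level, the transcripts lay between percentile 11.6 (*Fas*) and percentile 94.5 (*Mcl1*) of the expressed genes. Over all 20 ovaries *Mcl1* had the highest mean at 199.5 CPM, and *Xiap* followed at 111 CPM. *Bcl2l1* at 43.5 and *Bcl2l11* at 42.2 CPM could not be put in order, since *Bcl2l1* was the higher one in 10 of 20 libraries. *Bak1* and *Bcl2*, both at 19.3 CPM, could not either, and *Bak1* was the higher one in 9 of 20 libraries. *Bax* had a mean of 13.9 CPM and lay below *Bcl2* in 18 of 20 libraries. *Bbc3* at 10.5 CPM lay below *Bax* in 14 of 20 libraries, and *Fas* was lowest in every library at a mean of 2.32 CPM. These levels count transcripts near their 3' ends and do not give protein amounts.

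**Figure D1:**
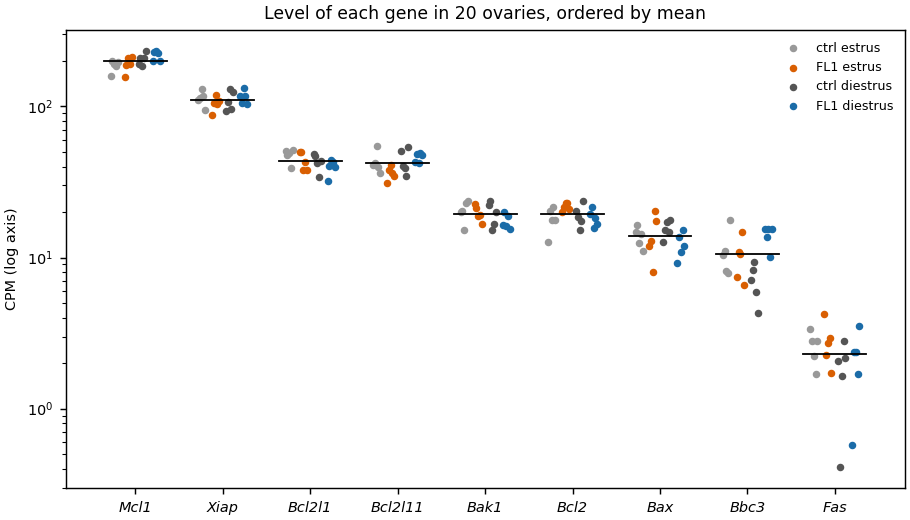
CPM on a log axis (vertical) of the 9 genes (horizontal, ordered by mean), with 1 point per ovary coloured by group and a line at the mean of 20 ovaries. *Mcl1* lies highest at a mean of 199.5 CPM and *Fas* lowest at 2.32 CPM, and the points of *Bcl2l1* and *Bcl2l11* cover the same range.

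Animals of a group also differed more for some genes than for others. The pooled SD of log2 CPM within groups was 0.14 for *Mcl1*, 0.18 for both *Xiap* and *Bcl2l1*, 0.20 for *Bcl2l11* and 0.21 for *Bak1* and *Bcl2*. All 6 lay below the median of 0.29 over 14154 expressed genes. *Bax* at 0.33, *Bbc3* at 0.40 and *Fas* at 0.65 lay above it, and these were the 3 genes with the fewest counts. The ratio of the highest to the lowest group mean ran from 1.10 for *Xiap* to 2.01 for *Bbc3*.

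*Bbc3* (ENSMUSG00000002083, chromosome 7, 16308393 to 16318205, plus strand, GRCm38) encodes PUMA, a BH3-only protein whose transcription p53 and FOXO factors are known to drive. In diestrus, the 5 ctrl ovaries had 7.07, 8.21, 9.31, 5.92 and 4.30 CPM. The 5 FL1 ovaries had 15.5, 13.6, 15.4, 10.0 and 15.5 CPM. Every FL1 ovary lay above every ctrl ovary, and 4 of the 5 FL1 values were close together. In edgeR's test FL1 against ctrl gave a log2FC of 1.00 (SE 0.22, adjusted p = 0.0177), a fold of 2.00 with a 95% interval from 1.45 to 2.76. This was 1 of 9 members, and of all 13259 genes 4.11% differed between the lines in diestrus and 2.29% were stronger expressed in FL1. The groups did not overlap in 5.45% of all genes tested. The call held in all 10 fits that left out 1 library each, with a log2FC from 0.87 to 1.12 and an adjusted p up to 0.0460. Between 28 and 108 counts per library stood behind the 10 values. In whole ovaries, more cells that express a gene and more transcript per cell cannot be told apart.

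In estrus the lines were not separated. The ctrl ovaries had 10.3, 11.1, 8.09, 7.90 and 17.6 CPM of *Bbc3*. The FL1 ovaries had 7.49, 10.9, 10.6, 14.8 and 6.63 CPM. These ranges cover each other, and the highest value belonged to a ctrl ovary, ctrl estrus 5. The log2FC of FL1 against ctrl was -0.12 (SE 0.27, adjusted p = 0.878), with a 95% interval from -0.70 to 0.46. In this comparison 2.33% of 13374 genes passed the test, and none of the 9 did.

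The dependence of the line difference on stage was tested by the interaction over all 20 libraries. For *Bbc3* the interaction (the difference in estrus minus that in diestrus) was -1.12 on the log2 scale, with an SE of 0.36 and a 95% interval from -1.85 to -0.38. Its unadjusted p was 0.00458 in edgeR's test and its adjusted p 0.209 over 14154 genes, so the interaction did not pass. Only 8 genes, or 0.0565%, passed it. The interaction reuses the libraries of both stages. Without 1 library it ran from -1.29 to -0.89 for *Bbc3*, the latter without ctrl estrus 5, and passed in none of the 20 fits. Within the lines, *Bbc3* had a log2FC of estrus against diestrus of 0.64 (SE 0.27, adjusted p = 0.269) in ctrl and of -0.48 (SE 0.22, adjusted p = 0.144) in FL1. Ordered by mean, FL1 in diestrus was followed by ctrl in estrus, FL1 in estrus and ctrl in diestrus, and the libraries of each neighbouring pair overlapped.

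Some markers of cell types also differed between the lines in diestrus. Of all 13259 genes 4.11% did, and 2.29% were stronger expressed in FL1. Of 8 macrophage and leukocyte markers, *Lyz2* (log2FC 1.31, adjusted p = 0.0250) and *Cd68* (log2FC 0.79, adjusted p = 0.0467) were stronger expressed in FL1. The other 6 did not pass, and among them *Csf1r* had 29.3 ± 6.65 CPM (SD, n = 5) in ctrl and 20.2 ± 2.15 in FL1, and *C1qa* 40.7 ± 8.69 and 40.1 ± 6.37. The sum of the 8 ran from 221 to 383 CPM in ctrl and from 304 to 596 CPM in FL1, and *Lyz2* alone had means of 93.8 and 233 CPM. In estrus 1 of the 8 passed, against 2.33% of all genes. It was *Lyz2*, with 127 ± 24.6 CPM (SD, n = 5) in ctrl and 272 ± 86.3 in FL1. Over both stages, where 6.74% of all genes passed, *Lyz2* and *Cd68* were stronger and *Csf1r* weaker expressed in FL1. Of 7 granulosa markers tested, *Foxl2* was stronger expressed in FL1 (log2FC 0.53, adjusted p = 0.0132), while the sum of all 8 ran from 2437 to 3577 CPM in ctrl and from 2430 to 3678 CPM in FL1. For *Foxl2* in diestrus, qPCR by the authors gave a difference of the opposite sign, not marked as significant. Of 8 luteal markers, 1 passed, which was *Lhcgr*, and their sum ran from 25128 to 45685 CPM in ctrl and from 27478 to 37468 CPM in FL1. Their part in the difference of *Bbc3* was not tested.

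*Bcl2l11* (ENSMUSG00000027381, chromosome 2, 128126038 to 128162547, plus strand) encodes BIM, the BH3-only protein that binds all survival members of the family and is a known FOXO target. In FL1 in estrus it had 31.1, 38.1, 40.6, 36.3 and 34.6 CPM. In FL1 in diestrus it had 43.1, 48.2, 42.2, 49.1 and 47.6 CPM. The highest estrus value stayed below the lowest diestrus value. Estrus against diestrus gave a log2FC of -0.35 (SE 0.10, adjusted p = 0.0238 in edgeR's test), a fold of 0.785 with a 95% interval from 0.679 to 0.907. In this comparison 15.9% of 13350 genes passed the test, 8.49% of the 13350 were called weaker expressed in estrus, and the groups did not overlap in 12.2%. So 1 of 9 members against 15.9% of all genes is a share near the background. With all 20 libraries in 1 fit, the log2FC was again -0.35 at an adjusted p of 0.0801. The call was lost without FL1 estrus 1, 4 or 5 and without FL1 diestrus 2, 4 or 5, with an adjusted p up to 0.0580 and a log2FC from -0.39 to -0.30 over the 10 fits.

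In ctrl, *Bcl2l11* had 40.7, 42.4, 54.5, 39.6 and 36.4 CPM in estrus. In diestrus the ctrl values were 51.0, 40.1, 39.2, 34.4 and 53.8 CPM. The stages overlapped almost fully in this line, with a log2FC of -0.036 (SE 0.15, adjusted p = 0.945) against a background of 2.85% of 13334 genes. The interaction was -0.31 (SE 0.18, adjusted p = 0.499), so a difference between the lines in the stage effect was not shown. FL1 against ctrl gave a log2FC of -0.24 (SE 0.13, adjusted p = 0.381) in estrus and of 0.072 (SE 0.12, adjusted p = 0.828) in diestrus.

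Markers of several cell types differed between the stages in FL1 too. Of all 13350 genes 15.9% did, with 8.49% weaker and 7.42% stronger expressed in estrus. In estrus, 6 of 8 luteal markers, 3 of 5 endothelial markers and 4 of 4 red blood cell markers were weaker expressed, while the luteal marker *Parm1* and 2 of 4 smooth muscle markers were stronger expressed. Of 3 theca markers tested, *Cyp11a1* and *Cyp17a1* were weaker and *Mgarp* stronger expressed. The oocyte marker *Bmp15* (1 of 9) and *Epcam*, from the oviduct list, were stronger expressed. Of the granulosa markers, *Cyp19a1* and *Foxl2* were weaker expressed, and of the leukocyte markers *Cd74*. The summed luteal markers ran from 14763 to 29231 CPM in FL1 in estrus and from 27478 to 37468 CPM in diestrus. In ctrl they ran from 11618 to 32816 CPM in estrus and from 25128 to 45685 CPM in diestrus. Their part in the difference of *Bcl2l11* was not tested.

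The start regions of the 9 genes were read to see which of them hold the core motif of the FOXO factors or a p53 half-site, the factors known for *Bbc3*, *Bcl2l11* and *Bax*. RefSeq (GRCm38.p6) gave 16 windows of 250 bases before to 50 after an annotated start, for 9 of 9 members. The FOXO core GTAAACA, searched on both strands, was found in 1 window each of *Bcl2l11* and *Bbc3*, and in 3.65% of the 32851 windows of all genes. That share is per window, while *Bbc3* has 3 windows and *Bcl2l11* has 2. The windows of *Bmf*, a BH3-only gene outside the 9, held no FOXO core, and 1 of them held a p53 half-site. Among the members the p53 half-site was found in the window of *Bax*, and it was found in 8.36% of all windows. The windows of members that hold these motifs are chr7:16310011-16310310 (plus strand) for *Bbc3*, chr2:128125788-128126087 (plus strand) for *Bcl2l11* and chr7:45466849-45467148 (minus strand) for *Bax*. They are shown 5′ to 3′ on the strand of the gene, with the FOXO core (in *Bbc3* read from the other strand) or the p53 half-site in capitals.
*Bbc3*: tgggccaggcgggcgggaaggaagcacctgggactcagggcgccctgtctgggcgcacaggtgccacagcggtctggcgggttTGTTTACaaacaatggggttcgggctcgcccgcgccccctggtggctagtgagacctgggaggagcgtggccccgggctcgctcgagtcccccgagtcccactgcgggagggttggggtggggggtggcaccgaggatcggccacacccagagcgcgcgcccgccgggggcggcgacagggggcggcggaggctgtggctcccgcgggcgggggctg
*Bcl2l11*: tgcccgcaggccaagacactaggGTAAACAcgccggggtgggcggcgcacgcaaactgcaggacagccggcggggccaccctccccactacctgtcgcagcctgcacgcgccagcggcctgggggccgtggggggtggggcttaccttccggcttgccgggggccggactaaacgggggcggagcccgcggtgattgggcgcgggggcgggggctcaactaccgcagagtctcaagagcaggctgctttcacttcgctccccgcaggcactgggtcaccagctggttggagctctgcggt
*Bax*: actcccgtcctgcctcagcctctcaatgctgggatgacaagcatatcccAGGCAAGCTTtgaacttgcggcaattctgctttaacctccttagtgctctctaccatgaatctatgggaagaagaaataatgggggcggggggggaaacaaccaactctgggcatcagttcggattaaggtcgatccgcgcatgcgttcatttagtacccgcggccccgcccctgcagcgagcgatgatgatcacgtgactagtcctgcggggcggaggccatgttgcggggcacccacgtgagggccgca
The FOXO core began 167 bases before the annotated start in *Bbc3* and 227 before it in *Bcl2l11*, and the half-site of *Bax* began 201 before it. *Bbc3* has 3 annotated starts and *Bcl2l11* has 2, and the 3' counts do not tell which of them was used. The share of G and C in these windows was 74.7% in *Bbc3*, 71.0% in *Bcl2l11* and 57.3% in *Bax*, where the median of all windows was 52.7%. Over all windows of the members it ran from 37.7% in 1 window of *Xiap* to 78.0% in another window of *Bbc3*. A match is a run of letters and no measure of binding.

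Of the FOXO genes themselves, *Foxo1*, which encodes a factor abundant in granulosa cells, differed between the stages. In ctrl its level was 372 ± 108 CPM (SD, n = 5) in estrus and 670 ± 160 in diestrus, a log2FC of -0.85 (SE 0.20, adjusted p = 0.0408), and every estrus ovary lay below every diestrus ovary, as 4.52% of all genes did not overlap in this comparison. The call held only without ctrl estrus 1 or 5, and the adjusted p without any other of the 10 libraries rose up to 0.0981. In FL1 the log2FC was -0.44 (SE 0.17, adjusted p = 0.0874), and over both lines it was -0.64 (SE 0.15, adjusted p = 0.00378), which passed in all 20 fits without 1 library. *Foxo3* differed in no comparison, with group means from 68.5 to 78.1 CPM. *Trp53*, which encodes p53, did not either, with group means from 23.6 to 28.4 CPM.

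*Bcl2*, *Bcl2l1* and *Mcl1*, the survival genes among the members, passed the test in no comparison. *Bcl2* (ENSMUSG00000057329, chromosome 1, 106538178 to 106714274, minus strand) encodes the founding survival protein of the family. Its 5 ovaries per group ran from 12.7 to 21.6 CPM in ctrl in estrus and from 19.96 to 23.0 in FL1 in estrus. In diestrus they ran from 15.3 to 23.7 in ctrl and from 15.6 to 21.7 in FL1. The lines overlapped in both stages. FL1 against ctrl gave a log2FC of 0.27 (SE 0.15, adjusted p = 0.422) in estrus and of -0.057 (SE 0.15, adjusted p = 0.892) in diestrus. The 95% intervals of the fold ran from 0.960 to 1.51 in estrus and from 0.772 to 1.20 in diestrus.

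*Bcl2l1* (ENSMUSG00000007659, chromosome 2, 152780668 to 152831728, minus strand) encodes BCL-XL. Its level was 47.6 ± 4.79 CPM (SD, n = 5) in ctrl and 43.7 ± 5.97 in FL1 in estrus. In diestrus it was 42.8 ± 5.58 in ctrl and 39.7 ± 4.58 in FL1. The mean of FL1 was the lower one in both stages, but the libraries overlapped and the log2FC of -0.12 (SE 0.12, adjusted p = 0.687) and -0.11 (SE 0.12, adjusted p = 0.688) did not pass. Estrus against diestrus over both lines gave 0.14 (SE 0.082, adjusted p = 0.275).

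*Mcl1* (ENSMUSG00000038612, chromosome 3, 95658788 to 95663176, plus strand) encodes a short-lived survival protein and was the strongest expressed of the 9 genes in every library. Its level was 186 ± 16.2 CPM (SD, n = 5) in ctrl and 191 ± 22.1 in FL1 in estrus, and 205 ± 19.0 in ctrl and 217 ± 17.0 in FL1 in diestrus. Both lines had the lower mean in estrus, with a log2FC against diestrus of -0.15 (SE 0.10) in ctrl and -0.19 (SE 0.090) in FL1. Over both lines the stage difference was -0.17 (SE 0.066, adjusted p = 0.101), while 14.8% of 14154 genes passed this test. The 95% interval of the line difference ran from 0.879-fold to 1.20-fold in estrus and from 0.929-fold to 1.20-fold in diestrus, the narrowest in diestrus among the 9 genes.

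**Figure D2:**
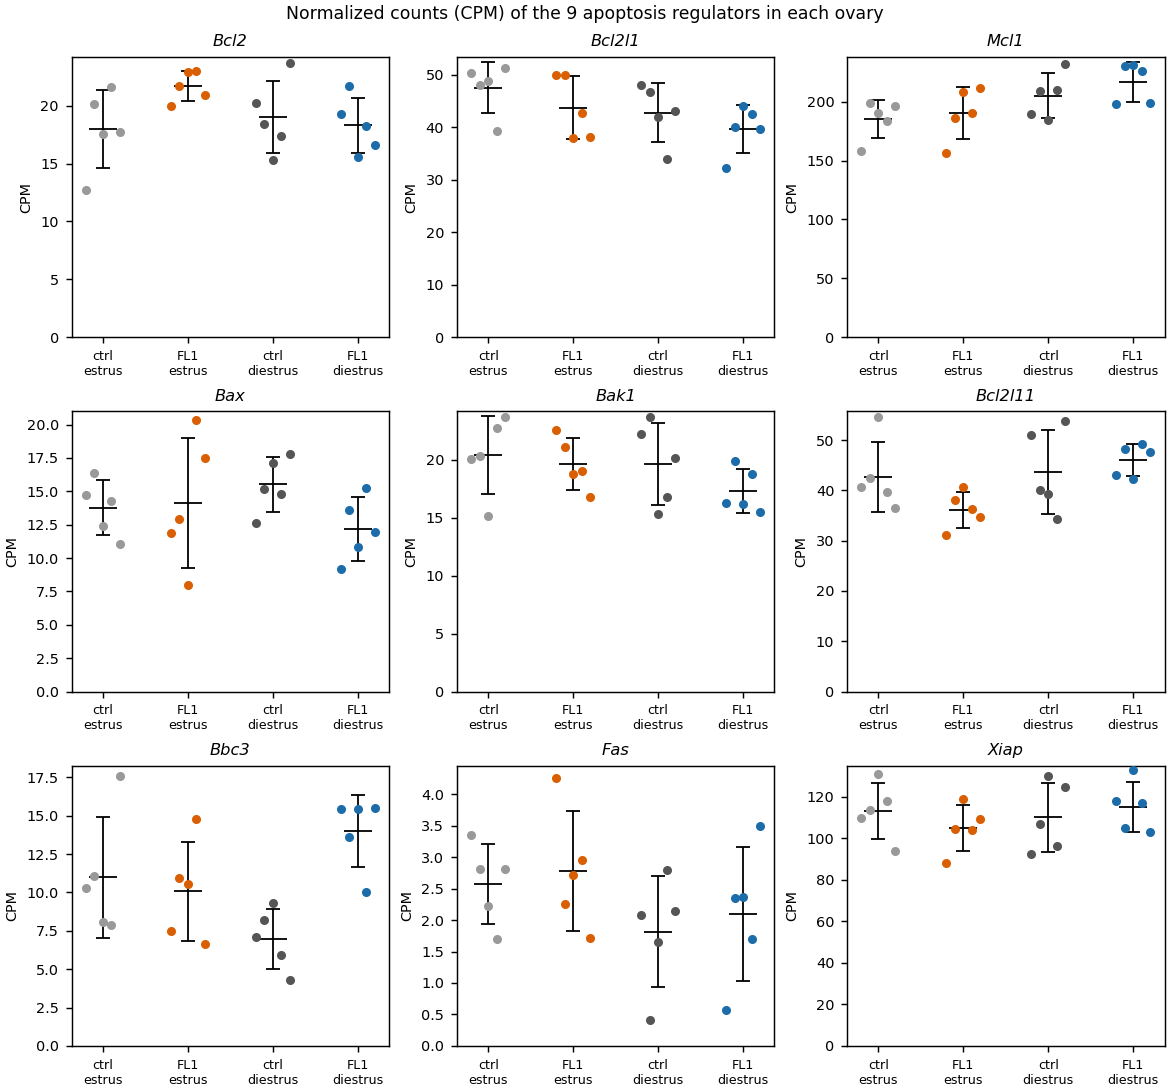
CPM (vertical, linear axis from 0) of each of the 9 genes in the 4 groups of line and stage (horizontal). Points are single ovaries, and bars give the mean and SD of 5. For *Bbc3* the FL1 diestrus points, from 10.0 to 15.5 CPM, lie above all ctrl diestrus points, from 4.30 to 9.31 CPM, and for *Bcl2l11* the FL1 estrus points lie below the FL1 diestrus points.

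The effectors *Bax* and *Bak1* encode the proteins that perforate the mitochondrial membrane, and either can suffice. *Bax* (ENSMUSG00000003873, chromosome 7, 45461697 to 45466898, minus strand) had 12.6, 15.2, 17.1, 14.8 and 17.8 CPM in ctrl in diestrus. In FL1 in diestrus it had 9.16, 13.6, 10.9, 15.3 and 12.0 CPM. The means were 15.5 ± 2.05 and 12.2 ± 2.37, and the FL1 values reached into the ctrl range. FL1 against ctrl gave -0.34 on the log2 scale (SE 0.17, adjusted p = 0.305), and the 95% interval ran from -0.71 to 0.017. In estrus the FL1 ovaries spread from 7.96 to 20.4 CPM around ctrl ovaries from 11.1 to 16.4 CPM, with a log2FC of 0.032 (SE 0.23, adjusted p = 0.965). The sign in estrus turned to -0.018 with the replicate number as a block.

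*Bak1* (ENSMUSG00000057789, chromosome 17, 27019810 to 27029009, minus strand) had group means between 17.3 and 20.4 CPM. The lowest mean was in FL1 in diestrus, at 17.3 ± 1.90 CPM (SD, n = 5), against 19.6 ± 3.54 in ctrl. All groups overlapped, and the log2FC of FL1 against ctrl was -0.056 (SE 0.15, adjusted p = 0.902) in estrus and -0.18 (SE 0.15, adjusted p = 0.584) in diestrus.

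The ratio of *Bax* to *Bcl2* transcripts is often given as a measure of the balance of the pathway. Its geometric mean over 5 ovaries was 0.771 in ctrl and 0.619 in FL1 in estrus, and 0.818 in ctrl and 0.660 in FL1 in diestrus. Single ovaries ran from 0.624 to 1.16 in ctrl in estrus and from 0.347 to 0.885 in FL1 in estrus. In diestrus they ran from 0.623 to 1.12 in ctrl and from 0.474 to 0.837 in FL1. The lower mean belonged to FL1 in both stages, while the ranges overlapped and the ratio was not tested. The ratio of *Bcl2l11* to *Mcl1* had geometric means of 0.229 in ctrl and 0.190 in FL1 in estrus, and of 0.211 and 0.212 in diestrus. These ratios compare 3' counts of different genes and are not ratios of proteins.

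*Fas* (ENSMUSG00000024778, chromosome 19, 34290666 to 34327772, plus strand) encodes the receptor of FAS ligand. It was the weakest expressed of the 9, with 3 to 29 counts per library, and 3 counts were taken as the least that can be told from 0. The ctrl ovaries had 1.69 to 3.35 CPM in estrus and 0.410 to 2.80 CPM in diestrus, and FL1 had 1.71 to 4.26 and 0.572 to 3.50 CPM. The groups overlapped throughout. The log2FC of FL1 against ctrl was 0.11 (SE 0.34, adjusted p = 0.915) in estrus and 0.20 (SE 0.49, adjusted p = 0.883) in diestrus. A difference between 0.557-fold and 2.37-fold in diestrus lay within the 95% interval. In estrus that interval ran from 0.654-fold to 1.78-fold.

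*Xiap* (ENSMUSG00000025860, chromosome X, 42059679 to 42109656, plus strand) encodes the inhibitor that binds caspases directly. Its group means lay between 105 and 115 CPM, and their ratio of 1.10 was the smallest of the 9 genes. FL1 against ctrl gave a log2FC of -0.11 (SE 0.11, adjusted p = 0.682) in estrus and of 0.064 (SE 0.11, adjusted p = 0.828) in diestrus, and the 95% intervals reached 0.787-fold at the lower and 1.23-fold at the upper end. The stage difference was 0.041 (SE 0.12) in ctrl and -0.13 (SE 0.094) in FL1.

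Of the 9 genes, none passed between the lines in estrus by edgeR's test (2.33% of all genes did) and 1 passed in diestrus (4.11%). Between the stages none passed in ctrl (2.85%) and 1 in FL1 (15.9%). These comparisons share libraries in pairs. The median log2FC of the 9 genes was -0.056 in estrus and 0.064 in diestrus for FL1 against ctrl, where the medians over all genes were -0.0052 and -0.0093. For estrus against diestrus it was 0.041 in ctrl and 0.13 in FL1, where the medians over all genes were -0.0058 and 0.0071. Both combined fits over all 20 libraries gave no call among the 9 genes. For FL1 against ctrl with stage as a covariate, where 6.74% of 14154 genes passed, the largest was *Bbc3* with a log2FC of 0.44 (SE 0.21, adjusted p = 0.260).

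**Figure D3:**
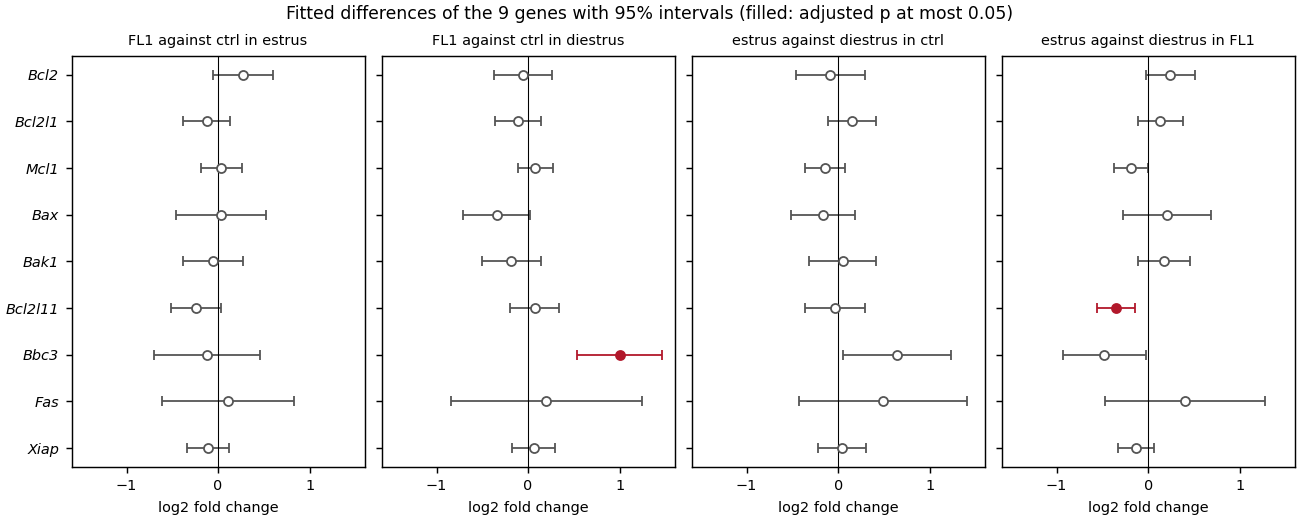
Fitted log2 fold change (horizontal) of the 9 genes (vertical) in 4 comparisons, with 95% intervals from 5 against 5 ovaries, and filled red points where the adjusted p was at most 0.05. The filled points are *Bbc3* for FL1 against ctrl in diestrus, at 1.00, and *Bcl2l11* for estrus against diestrus in FL1, at -0.35.

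The wider pathway was read from 53 further genes in 8 groups by function, of which 46 were tested in each comparison of 10 libraries. Among those with too few counts were the BH3-only genes *Hrk* (11 counts in all libraries together) and *Pmaip1* (101 counts), and the ligand genes *Fasl* (16 counts) and *Tnf* (19 counts). In diestrus, FL1 differed from ctrl in 1 of the 46 upward and 1 downward, against 4.11% of all genes. In estrus none of the 46 passed edgeR's test.

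The gene that was stronger expressed was *Bmf*, which encodes a BH3-only protein bound to the cytoskeleton in living cells. In diestrus it had 5.09, 5.20, 4.35, 4.77 and 3.38 CPM in ctrl. In FL1 it had 6.01, 10.3, 8.97, 9.06 and 7.99 CPM. All FL1 ovaries lay above all ctrl ovaries, with a log2FC of 0.89 (SE 0.22, adjusted p = 0.0370), and 5.45% of all genes did not overlap in diestrus. In estrus the ctrl ovaries ran from 4.83 to 8.94 CPM and the FL1 ovaries from 11.2 to 13.3 CPM, again without overlap (log2FC 0.73, SE 0.20, adjusted p = 0.0750), which held for 4.89% of all genes. Over both stages the log2FC was 0.81 (SE 0.14, adjusted p = 0.000456), which passed in all 20 fits without 1 library. This was the 1 call among 47 genes tested, where 6.74% of 14154 genes passed. The call in diestrus alone held without ctrl 1 or FL1 1 and was lost without any other of the 10 libraries, with an adjusted p up to 0.0854, and it was lost with the replicate number as a block (adjusted p = 0.0780).

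With *Bbc3*, 2 of the 8 BH3-only genes tested were stronger expressed in FL1 in diestrus, where 2.29% of all genes were. These 2 were also the only ones stronger expressed among all 55 pathway genes tested, members included. The lists were chosen with earlier results of these data known, so the share within 1 list is a description only. The call of *Bmf* was lost in 8 of the 10 fits without 1 library. The other 6 BH3-only genes ran in both directions, and the median log2FC of the 8 was 0.096. *Bcl2l10* was the gene with weaker expression in FL1. It encodes a survival relative of BCL2 that is known from oocytes. It had 35.4, 31.7, 32.3, 34.7 and 25.7 CPM in ctrl in diestrus. FL1 had 22.3, 13.5, 24.4, 13.7 and 9.33 CPM, all below ctrl, and 5.45% of all genes did not overlap in this comparison. The log2FC was -0.94 (SE 0.22, adjusted p = 0.0235), and the call was lost without FL1 diestrus 2 or 4 (adjusted p up to 0.0704) and with all 20 libraries in 1 fit (adjusted p = 0.0711). Of 9 oocyte markers none passed in diestrus, their median log2FC was -0.20, and their sum ran from 165 to 321 CPM in ctrl and from 173 to 271 CPM in FL1. Their part in the difference of *Bcl2l10* was not tested. In estrus its log2FC was -0.14 (SE 0.30, adjusted p = 0.875).

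No gene of the caspases and the apoptosome passed between the lines in either stage, out of 8 tested. In diestrus *Casp9*, which the apoptosome activates, had a log2FC of 0.055 (SE 0.13), and *Casp8*, which acts below FAS, of 0.023 (SE 0.16). The largest were those of *Cycs* at 0.46 (SE 0.25, adjusted p = 0.353) and *Apaf1* at 0.38 (SE 0.22, adjusted p = 0.396 in edgeR's test). In that comparison 7 of the 8 had a positive log2FC, with a median of 0.11, where the median over all genes was -0.0093.

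Between the stages in FL1, 6 of 46 genes of the wider pathway were stronger expressed in estrus and 1 was weaker expressed, a share near the 15.9% of all genes. *Axl*, a receptor that helps to clear dying cells, had 291 ± 34.7 CPM (SD, n = 5) in estrus and 191 ± 7.98 in diestrus, without overlap (log2FC 0.60, SE 0.086, adjusted p = 0.000167). The groups did not overlap in 12.2% of all genes tested. *Birc6*, which encodes a very large inhibitor of apoptosis, had 127 ± 10.9 CPM in estrus and 181 ± 15.8 in diestrus (log2FC -0.51, SE 0.086, adjusted p = 0.000660). *Bnip3*, a BH3-like gene known from hypoxia and mitophagy, was stronger expressed in estrus (log2FC 0.59, SE 0.13, adjusted p = 0.00482), as was *Cdkn1a*, the p53 target that halts the cell cycle (log2FC 0.96, SE 0.24, adjusted p = 0.0111). These 4 calls held without each of the 10 libraries, but that of *Cdkn1a* was lost with all 20 libraries in 1 fit (adjusted p = 0.199).

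Also past the threshold in FL1 were *Bnip3l* (log2FC 0.27, adjusted p = 0.0293) and *Birc5* (log2FC 0.62, adjusted p = 0.0443), which encodes survivin, a protein of dividing cells. The call of *Bnip3l* was lost without FL1 estrus 2, 4 or 5 or FL1 diestrus 2, 4 or 5, and that of *Birc5* held only without FL1 estrus 3 or 5 or FL1 diestrus 1. The call of *Bnip3l* was also lost with the replicate block (adjusted p = 0.0533) and with the filter of at least 1 count (adjusted p = 0.0978), and that of *Birc5* with all 20 libraries in 1 fit (adjusted p = 0.0864). In ctrl, *Foxo1* was the 1 of 46 that passed, a share near the 2.85% of all genes.

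Over both lines, 7 of 47 genes were stronger and 2 weaker expressed in estrus, against 14.8% of all genes. Besides *Axl* (log2FC 0.65), *Bmf* (0.58), *Bnip3* (0.37) and *Cdkn1a* (0.96), the former included *Tnfrsf1a* (0.29), the main receptor of tumour necrosis factor, and *Fadd* (0.25), the adaptor of FAS. Those that were weaker expressed were *Foxo1* (-0.64) and *Birc6* (-0.34). The calls of *Axl*, *Bmf*, *Tnfrsf1a*, *Foxo1* and *Birc6* held in all 20 fits without 1 library. The call of *Bnip3* was lost without FL1 estrus 1 or 2 or FL1 diestrus 1, 2 or 4 (adjusted p up to 0.0579). That of *Fadd* held in 7 of these 20, without ctrl estrus 3 or 5, FL1 estrus 3, 4 or 5, ctrl diestrus 1 or FL1 diestrus 4, and was lost in the others (up to 0.0954). That of *Cdkn1a* also held in 7, without ctrl estrus 1, 2, 3 or 4, FL1 estrus 1, ctrl diestrus 1 or FL1 diestrus 2, and was lost in the others (up to 0.136). The call of *Fadd* was also lost with the replicate block (adjusted p = 0.0568) and the filter of at least 1 count (adjusted p = 0.139), and that of *Cdkn1a* with the replicate block (adjusted p = 0.0775) and DESeq2 (adjusted p = 0.0505). For *Cdkn1a* the log2FC fell to 0.62 without ctrl estrus 5, which had 385 CPM where the other ctrl estrus ovaries had 74.0 to 110.1. It rose to 1.30 without ctrl diestrus 1, which had 202 CPM where the other ctrl diestrus ovaries had 29.9 to 58.4. The interaction called none of the 47.

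**Figure D4:**
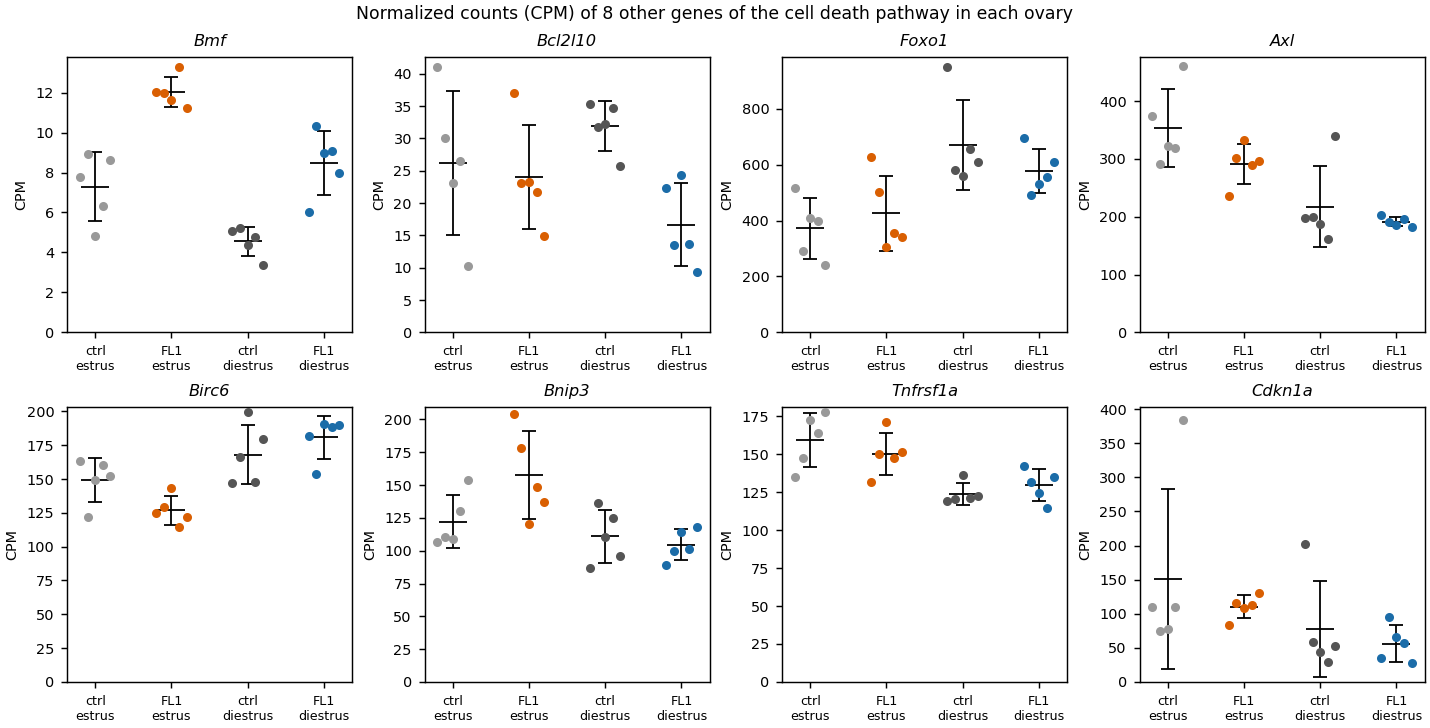
CPM (vertical, linear axis from 0) of 8 other genes of the pathway in the 4 groups (horizontal), with 1 point per ovary and bars at the mean and SD of 5. The FL1 points of *Bmf* lie above the ctrl points in both stages, those of *Bcl2l10* lie below them in diestrus, and 1 ctrl ovary in each stage stands far above its group for *Cdkn1a*.

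Across the 20 ovaries, with the group means taken out, the 9 genes followed each other only weakly. Pearson's r of log2 CPM ran from -0.54 for *Bak1* and *Xiap* to 0.53 for *Bcl2* and *Mcl1* over the 36 pairs, and was -0.31 for *Bcl2l11* and *Bbc3*. The genes most like *Bbc3* among 11071 were *Lmbrd2* (r = 0.81), *Rab3a* (0.78) and *Ifi47* (0.78). For *Bcl2l11* they were *Atrx* (0.86), *Bnc2* (0.83) and *Syne2* (0.82), and for *Mcl1* *Pdcd1* (0.84), *Rin1* (0.84) and *Pyroxd2* (0.81). *Xiap* was most like *Zfp503* (0.88), *Taok1* (0.84) and *Tmem131* (0.83). *Bcl2* was most like *Spa17* (0.80), *Bcl2l1* like *Pnkd* (0.80), *Bax* like *Klhl7* (0.79), *Bak1* like *Farsb* (0.82) and *Fas* like *Twnk* (0.85). These values describe 20 libraries, are the highest of many, and share the depth and the makeup of each ovary.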

How the data were processed

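Ovaries of 20 females of the lines ctrl and FL1, 5 per line and stage, were measured. Line and stage came from the titles and characteristics in the labels, whose source name reads FL1 for all libraries. The authors used QuantSeq 3' libraries, aligned trimmed reads to GRCm38 with STAR, and deposited raw counts of uniquely assigned reads per Ensembl gene, without normalization. The submitters' processing notes also name Cuffdiff. The counting tool and its strand setting are not given in the sources used here, so reads of a gene and of an overlapping gene on the other strand might not be told apart. No molecular identifiers are named, so intervals cover counting error and the spread between animals only.

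All values were computed here from those deposited counts. Symbols and positions came from GENCODE M21 (GRCm38), which has 54809 of the 54838 genes. Groups were tested by quasi-likelihood in edgeR 4.0.16 (R 4.3.3) with TMM normalization and filterByExpr at a minimum count of 10, adjusted by Benjamini-Hochberg over all genes tested. An adjusted p of at most 0.05 was called. The lines were compared within each stage and the stages within each line (10 libraries each), and the interaction and both combined fits used all 20 libraries. Alternatives were RLE size factors, DESeq2 1.42.0, a filter of at least 1 count in total, the replicate number as a block, 1 fit of all 20 libraries, and each library left out. Likeness used log2 CPM (prior count 2) of genes with a mean of at least 5 CPM, and the 3 most alike were kept. All members are named, and of the pathway lists the genes that passed the test, except 1 that is counted but not reported here. *Trp53*, *Foxo3*, *Casp8*, *Casp9*, *Cycs* and *Apaf1*, genes too low to test, and single markers were named after their values were seen. The members and lists were chosen with earlier results of these data known. The test was tried on simulated counts of 13259 genes in diestrus, where it recovered 174 of 200 genes changed by 1.5 on the log2 scale (87%), with 2 other calls. No member differed by that much in any comparison, and smaller changes were not simulated. No pair of libraries within a group looked like a duplicate, with a chi-square per gene from 6.03 to 42.4 in 40 pairs, and pairs across groups were not compared.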

Additional observations from a re-analysis of the deposited data

Results flagged for a closer look

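Of the 36 sets of 5 values (9 genes in 4 groups), 1 held a library that stood apart by Dixon's criterion, and chance gives about 1 in 20 such sets. In ctrl in estrus, the ovary with the lowest *Bcl2l1* level had 39.3 CPM, where the next had 48.0 CPM and the highest 51.3 CPM. The gap was 0.721 of the range of the group, above the critical value of 0.71. Without this ovary the call of *Bcl2l1* did not change.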

How the results depend on the processing

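Of 1188 values of the 9 genes under alternatives, 1132 kept their direction and their side of the threshold. The call of *Bbc3* in diestrus held under all of them, at an adjusted p from 0.000777 (DESeq2) to 0.0460, and its interaction stayed above 0.05 (0.111 with DESeq2). The number of genes called moved more. DESeq2 called 670 in estrus, 892 in diestrus, 768 between the stages in ctrl and 152 in the interaction. The filter of at least 1 count called 477 in estrus, 846 in diestrus and 17 in the interaction, and 1 fit of all 20 libraries called 531 in estrus and 909 between the stages in ctrl. The value of *Bcl2l11* between the stages in FL1 was -0.35 in that fit, past the threshold no longer, and -0.39 to -0.30 without 1 library. Same-numbered libraries are different animals. The r of their deviations ran from -0.12 to 0.25 over 30 pairs, of which 10 were best with their own number among 5 candidates. Whether libraries of the same number were handled together is not stated and was not tested. With the replicate block *Bax* in estrus turned to -0.018, and no call of the 9 genes changed. The causes were not tested. Without 1 library, genes called ranged from 175 (FL1 estrus 2) to 418 (ctrl estrus 5) in estrus and from 349 (FL1 diestrus 4) to 594 in diestrus. Between the stages they ranged from 176 (ctrl diestrus 4) to 516 (ctrl estrus 5) in ctrl and from 1582 to 2316 in FL1. In the interaction they ranged from 0 to 15. Over all libraries they ranged from 812 to 1056 for the lines and from 1787 to 2439 for the stages. Log2FC that crossed 0 without 1 library, none of them called, were in estrus *Mcl1* (-0.015 to 0.098), *Bax* (-0.13 to 0.19), *Bak1* (-0.15 to 0.0047), *Bbc3* (-0.29 to 0.11) and *Fas* (-0.095 to 0.25). In diestrus they were *Bcl2* (-0.13 to 0.031), *Bcl2l11* (-0.0021 to 0.16) and *Fas* (-0.054 to 0.44), and between the stages in ctrl *Bcl2* (-0.16 to 0.020), *Bak1* (-0.031 to 0.14), *Bcl2l11* (-0.14 to 0.044) and *Xiap* (-0.018 to 0.10). In the interaction they were *Bcl2l1* (-0.080 to 0.061), *Mcl1* (-0.094 to 0.021) and *Fas* (-0.33 to 0.16), and in the combined fits *Xiap* for the lines (-0.055 to 0.0098) and *Bax* (-0.068 to 0.083) and *Bbc3* (-0.074 to 0.16) for the stages. Depth limits *Fas*, which had 3 to 29 counts.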
